A study of Mus musculus with 2 samples.

Results

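The 27 genes described here encode enzymes of cholesterol synthesis, the SREBP system that controls it, and proteins that move, esterify or take up sterol. They were taken by name from a list drawn up with earlier results of these data known, and all 27 were found among the 35275 genes of the deposited count table. RNAseq was measured in AML12 cells, a non-transformed hepatocyte line established from a CD-1 mouse that carries a human TGF-alpha transgene, labelled as male, liver and 3 months of age. Control cells (labelled Young) were untreated, and senescent cells (labelled Old) were exposed to hydrogen peroxide for 1 h per day, first at 1 mM and then, on each of 5 further days, at 0.75 mM, with 23 h of recovery after each exposure. Cells of both groups were kept in the same medium with serum, insulin, transferrin, selenium and dexamethasone, and the peroxide was given without serum. RNA of 3 samples per group was pooled into 1 library, so the groups had no replicates, no test was possible and every ratio compares 2 libraries of a single cell line.

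Cholesterol is built from acetyl-CoA. Mevalonate is made and turned into isoprene units, which are joined to squalene, squalene is closed to lanosterol, and a series of oxidations, reductions and demethylations turns lanosterol into cholesterol. Many of these enzymes are under common transcriptional control of SREBP-2, the product of Srebf2, a membrane-bound factor that SCAP escorts from the endoplasmic reticulum to the Golgi when sterol is low and that INSIG proteins hold back when sterol is high. Hepatocytes are a main site of this synthesis and also clear lipoproteins from blood through surface receptors.

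The control library held 28021941 counted reads and the senescent library 25738075, and their counts were made comparable with TMM factors from edgeR. A log2 ratio is that of the senescent over the control library, and its 95% interval was derived by the Clopper-Pearson method from the share of a gene's reads that came from senescent cells. Intervals cover counting error only, with each read taken as independent, and leave out the variation between cultures. Amplified reads that carry no molecular identifier cannot be taken as separate molecules, so the intervals may be too narrow even for counting error. In both libraries the labelled cell type was checked against 7 hepatocyte markers, all of which were detected. Their summed level, in TMM-scaled counts per library size (CPM), was 2257 CPM in control and 864 CPM in senescent cells. The sum for 4 epithelial markers was 6075 and 8747 CPM. Among these, Krt8 (log2 ratio 0.51) and Krt18 (0.82) had an interval above 0. Cdh1 had 1 below it (-0.35, interval -0.39 to -0.32), and that of Epcam, with 0 and 1 reads, held 0. Of the hepatocyte markers 4 had an interval below 0, Hnf4a had 1 above it (0.14, interval 0.10 to 0.19) and 2 held 0, and without the most abundant marker the sum was 1154 and 746 CPM. The sums for 4 fibroblast markers were 0.722 and 0.282 CPM, for 4 macrophage markers 2.61 and 6.29 CPM and for 3 endothelial markers 0.138 and 0.403 CPM, with Col3a1 and Adgre1 at 0 reads in both libraries and Epcam, Pdgfrb, Dcn, Cdh5 and Kdr at 0 in the control. The hepatocyte markers Alb (32076 control and 2917 senescent reads, log2 ratio -3.23) and Apoa1 (2026 and 197, -3.13) were past the threshold of 1.5 used below. So was the fibroblast marker Col1a1, at only 21 and 1 reads (-3.29). In the other direction, the macrophage markers Ptprc (27 and 76 reads, 1.68) and Csf1r (15 and 40 reads, 1.58) were past it. The interval of the macrophage marker Cd68 held 0 (0.45, interval -0.23 to 1.17). The part that these marker differences had in the results below was not tested. In bulk RNA, fewer cells of a kind and less RNA per cell cannot be told apart.

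RefSeq promoter windows on GRCm38.p6, from 250 bases before to 50 after a start site, were matched for 22 of the 27 genes and not for Fdft1, Fdps, Stard4, Sqle and Scarb1. The 200 bases before the start are shown for 6 genes, 5' to 3' on the strand of the gene, because they span the range of ratios from the lowest with a window (Dhcr7 and Acat2) to genes that were not lower (Msmo1 and Soat1). Capitals mark the letters CCAAT of the NF-Y box on either strand (ATTGG where the box lies on the other strand) and the core letters CACCCCAC of the sterol regulatory element, to which SREBP binds, with the T of the longer form TCACCCCAC in Hmgcs1. NF-Y is a factor known to act together with SREBP at sterol-controlled promoters. The stretches lie at chr13:119690151-119690350 (Hmgcs1, plus strand), chr17:12960726-12960925 (Acat2, minus strand), chr5:114444069-114444268 (Mvk, plus strand), chr7:143830014-143830213 (Dhcr7, plus strand, 1 of 3 windows), chr8:64733579-64733778 (Msmo1, minus strand) and chr1:156474329-156474528 (Soat1, minus strand).
Hmgcs1: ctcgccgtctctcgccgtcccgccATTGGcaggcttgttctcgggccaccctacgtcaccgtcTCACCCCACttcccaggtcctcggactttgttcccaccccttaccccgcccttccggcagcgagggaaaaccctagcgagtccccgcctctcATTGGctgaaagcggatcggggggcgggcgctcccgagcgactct
Acat2: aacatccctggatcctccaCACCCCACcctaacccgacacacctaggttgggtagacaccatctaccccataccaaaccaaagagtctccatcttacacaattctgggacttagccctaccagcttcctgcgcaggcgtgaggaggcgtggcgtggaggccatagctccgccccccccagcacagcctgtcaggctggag
Mvk: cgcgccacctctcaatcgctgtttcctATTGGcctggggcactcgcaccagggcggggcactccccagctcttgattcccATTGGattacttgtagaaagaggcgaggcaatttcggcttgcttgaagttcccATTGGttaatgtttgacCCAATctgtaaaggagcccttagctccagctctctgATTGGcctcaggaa
Dhcr7: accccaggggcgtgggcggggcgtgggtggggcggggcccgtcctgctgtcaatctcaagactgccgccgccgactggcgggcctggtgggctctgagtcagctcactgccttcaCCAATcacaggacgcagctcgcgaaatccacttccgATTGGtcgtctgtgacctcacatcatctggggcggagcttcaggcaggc
Msmo1: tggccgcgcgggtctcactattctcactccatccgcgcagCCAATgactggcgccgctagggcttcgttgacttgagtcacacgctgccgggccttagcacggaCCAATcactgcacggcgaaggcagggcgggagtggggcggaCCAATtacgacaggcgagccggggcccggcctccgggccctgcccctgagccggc
Soat1: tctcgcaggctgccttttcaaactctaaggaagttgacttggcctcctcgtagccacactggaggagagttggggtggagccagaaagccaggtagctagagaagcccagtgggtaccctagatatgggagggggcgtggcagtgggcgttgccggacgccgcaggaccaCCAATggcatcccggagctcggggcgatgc

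The letters CACCCCAC were found in the windows of 2 of the 22 genes, with the first matched base at position -136 from the start in Hmgcs1 and at -181 in Acat2, against 3.71% of the 10394 genes with a window and at least 10 reads. The longer form TCACCCCAC, which contains these letters, was present in Hmgcs1 alone (0.712% of those 10394 genes), as was the looser TCACNCCAC (1.47%), which includes TCACCCCAC. All motifs were searched on both strands, and a gene was counted if any of its windows held the letters. In Dhcr7, Insig2 and Pmvk some windows held no CCAAT. The Dhcr7 stretch shown above is from its only window that held these letters. CCAAT was present in 19 of the 22 genes (86.4%), against 43.1% of the 10394 genes, and the GC box GGGCGG, which Sp1 binds, in 21 of 22 (95.5%) against 66.9%. The NF-Y letters were present in 15 of the 17 genes with a window that were lower in the senescent library, all but Acat2 and Lrp1. Of the 3 genes with a window that were higher, Msmo1 and Soat1 had them and Scap did not, which is too few to compare the directions. Sc5d, with an interval that held 0, and Mylip, with too few reads for a ratio, also had them. Mvk had 5 such boxes and Msmo1 had 3, although Mvk was lower in the senescent library and Msmo1 was not, as given below. A match of letters describes the window and not a bound site. Only the stated letters were searched, so a window without a match was not shown to lack a sterol regulatory element.

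**Figure D1:**
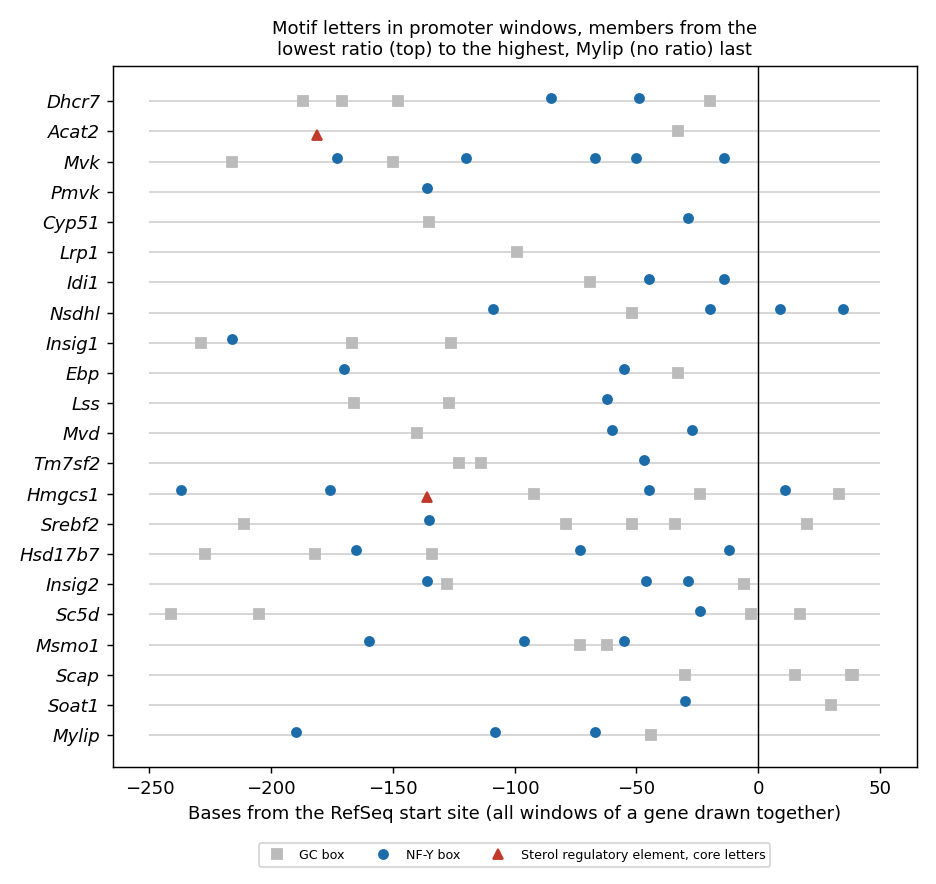
Positions of the searched letters in the promoter windows of 22 genes, in bases from the RefSeq start site, with 21 genes ordered by their log2 ratio from the lowest at the top and Mylip, which has no ratio, last. Circles mark the NF-Y box in 19 genes, squares the GC box in 21 and triangles the core letters of the sterol regulatory element in Acat2 and Hmgcs1.

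Transcripts for cholesterol synthesis were broadly and moderately lower in the senescent library. Of the 27 genes, 26 had at least 10 reads over both libraries, and each of these had at least 902. The interval lay wholly below 0 for 21 of the 26 genes (80.8%) and wholly above 0 for 4 (15.4%), and it held 0 for 1. Among all 14383 genes with at least 10 reads, 34.6% had an interval below 0 and 34.0% above 0, and among the 11291 genes with at least 100 reads these shares were 38.2% and 39.9%. The median log2 ratio of the 26 genes was -0.56 and that of all 14383 genes was -0.02. No gene passed the threshold of 1.5 that the methods of the study use, where the background was 5.6% of genes lower and 2.71% higher. With a threshold of 1, Dhcr7, Acat2 and Stard4 were lower, which is 11.5% of the genes and close to the background of 9.98%, and no gene was higher (background 5.09%). The share of intervals below 0 was thus above the background, while the shares past either threshold were not far from it or were 0. Neither background was matched to the read counts of the listed genes. Intervals without 0 were more common in the background with the higher read minimum. A biological coefficient of variation was also assumed for each library, which pooled RNA of 3 samples, and not for single cultures. At 0.1, 14 intervals stayed below 0 (background 21.4%) and 2 above 0 (background 17.4%). At 0.4, none did on either side (background 3.86% and 1.61%). The variation between cultures itself could not be measured with 1 library per group.

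**Figure D2:**
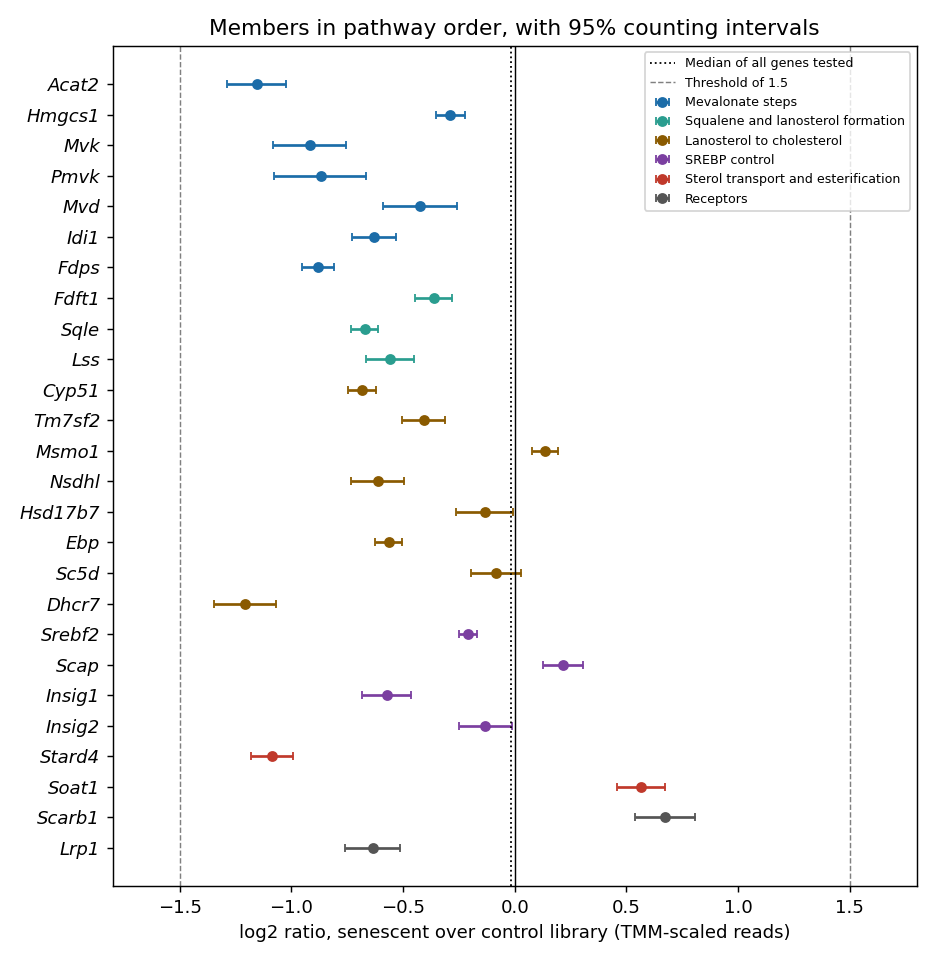
Log2 ratio of senescent over control library for 26 genes in pathway order from top to bottom, with 95% counting intervals as bars and the role of each gene as colour. The 18 enzymes of synthesis sit left of 0 apart from Msmo1, Soat1 and Scarb1 lie furthest to the right at 0.57 and 0.67, and no point reaches the dashed lines at 1.5.

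The mevalonate steps were lower throughout, with all 7 intervals below 0 and a median log2 ratio of -0.87. Acat2, the cytosolic thiolase that joins acetyl-CoA units (ENSMUSG00000023832, chromosome 17, 12942890 to 12960747 on GRCm38), was counted 1688 times in control and 646 times in senescent cells, which gave a log2 ratio of -1.15 (-1.29 to -1.02). Part of its sequence matched Acat3 at 97.7% identity over 1477 bases, and a shorter stretch of 445 bases matched Tcp1 at 98.65%, so how reads were divided among these genes is uncertain. Acat3 had 184 and 116 reads and Tcp1 9811 and 10263. Hmgcs1, which makes HMG-CoA, had 4750 and 3318 reads, and its ratio of -0.29 (-0.35 to -0.22) was the smallest of the 7 steps. The next enzymes phosphorylate mevalonate. Mvk had 993 and 448 reads (-0.92, interval -1.08 to -0.76), and Pmvk had 615 and 287 (-0.87, interval -1.08 to -0.67), so that the ratios of both kinases had overlapping intervals. Mvd, which decarboxylates the product to isopentenyl diphosphate, went from 771 reads in the control to 490 (-0.42, interval -0.59 to -0.26). Idi1, which isomerizes isopentenyl diphosphate, had 2423 and 1336 reads (-0.63, interval -0.73 to -0.53). Fdps, which condenses the isoprene units to farnesyl diphosphate, had 4906 and 2272 reads and a ratio of -0.88 (-0.95 to -0.81). On the same strand it shares 1124 bases, 26.7% of its exons, with Gm43738, a gene that is absent from the count table. Whether reads from Gm43738 were counted for Fdps cannot be told, so the count of Fdps is uncertain.

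The 3 enzymes that commit farnesyl diphosphate to sterols were also lower, with a median of -0.56. Fdft1, squalene synthase, had 2903 control and 1924 senescent reads (-0.36, interval -0.45 to -0.28). Its exons share 774 bases with Ctsb on the opposite strand, a gene with 12448 and 17276 reads, and since the use of strand in counting is not given in the sources used here, the count of Fdft1 is uncertain. Sqle, the squalene epoxidase and a rate-limiting step of the pathway, had 6234 control and 3338 senescent reads and a ratio of -0.67 (-0.73 to -0.61). Lss, which closes the ring to lanosterol, had 1916 and 1110 reads (-0.56, interval -0.67 to -0.45).

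The 8 enzymes from lanosterol to cholesterol were spread more widely, from -1.21 to 0.14 with a median of -0.49. Of their intervals 6 lay below 0, 1 above 0 and 1 held 0. Cyp51, which removes the 14-alpha-methyl group, had 5868 control and 3118 senescent reads (-0.68, interval -0.75 to -0.62), and Tm7sf2, the sterol reductase that follows it, had 2180 and 1401 (-0.41, interval -0.51 to -0.31). Removal of the C4 methyl groups takes the products of Msmo1, Nsdhl and Hsd17b7, and these did not move as a block. Msmo1, the methyl oxidase, had 5130 and 4806 reads, which after scaling was a ratio of 0.14 (0.08 to 0.19) and the only one above 0 among the 18 enzymes. With total-count scaling its ratio was 0.03 and no longer apart from 0. Nsdhl, the dehydrogenase of the same complex, had 1671 and 931 reads (-0.61, interval -0.73 to -0.50). Hsd17b7, the ketoreductase, had 1177 and 914 (-0.14, interval -0.26 to -0.01), and with the GC trend removed its interval held 0. Ebp, which shifts the double bond of the ring, had 5900 and 3404 reads (-0.56, interval -0.63 to -0.50). Sc5d, the desaturase after it, had 1438 control and 1157 senescent reads, and its interval of -0.20 to 0.03 held 0. Dhcr7, which reduces 7-dehydrocholesterol to cholesterol at the end of the pathway (ENSMUSG00000058454, chromosome 7 from 143823145 to 143848410), had 1571 and 580 reads, and its ratio of -1.21 (-1.35 to -1.07) was the lowest of the 26 genes, at percentile 8.32 of all genes tested.

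Summed over the 18 enzymes of synthesis, 52134 control and 31480 senescent reads gave 1793 and 1269 CPM after scaling, a pooled log2 ratio of -0.50 (-0.52 to -0.48). Their share of all counted reads was 0.186% in control and 0.122% in senescent cells. The median ratio over the enzymes was -0.59, with 16 intervals below 0, against -0.17 over the 8 other genes with a ratio, of which 5 lay below 0 and 3 above.

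The SREBP regulators differed less between the libraries than the enzymes did, with a median ratio of -0.17. Srebf2, which encodes SREBP-2 (ENSMUSG00000022463, chromosome 15 from 82147181 to 82205379), had the most reads of the 27 genes, 12693 in control and 9362 in senescent cells, and a ratio of -0.21 (-0.25 to -0.17). Scap, its escort, had 1983 and 1966 reads, a ratio of 0.22 (0.13 to 0.31). The sterol-dependent anchors were not alike. Insig1, itself a well-known SREBP target, had 1867 and 1070 reads (-0.57, interval -0.68 to -0.46), close to the median of the enzymes. Insig2, which is under different transcriptional control, had 1332 and 1037 reads (-0.13, interval -0.25 to -0.01), and the intervals of the pair did not overlap. The level per length of Insig1 was 1.57 times that of Insig2 in control and 1.16 times in senescent cells. Mbtps1 and Mbtps2 encode the proteases that release SREBP in the Golgi. Mbtps1 had 3831 and 3538 reads (0.11, interval 0.05 to 0.18), and Mbtps2 had 1319 and 1570 (0.48, interval 0.37 to 0.59), so that neither was lower in the senescent library.

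Genes of sterol movement, storage and uptake lay at both ends of the range. Stard4, a cytosolic carrier of cholesterol and a known SREBP target, had 3246 control and 1304 senescent reads, a ratio of -1.09 (-1.18 to -0.99). Soat1, which esterifies cholesterol for storage, had 1283 and 1620 reads, a ratio of 0.57 (0.46 to 0.67). Soat2, a second esterifying enzyme, from the further list described below, went the other way with 497 and 315 reads (-0.43, interval -0.64 to -0.22). Scarb1, the receptor that takes up cholesteryl ester from high-density lipoprotein (ENSMUSG00000037936, chromosome 5 from 125277087 to 125341094), had 764 and 1039 reads, and its ratio of 0.67 (0.54 to 0.81) was the highest of the 26 genes, at percentile 88.1 of all genes tested. Lrp1, a large endocytic receptor that clears lipoprotein remnants, had 1480 and 812 reads (-0.64, interval -0.76 to -0.51). Soat1 and Scarb1 were thus higher and Stard4 and Lrp1 lower, and each of these intervals excludes 0. Mylip, a ubiquitin ligase that marks lipoprotein receptors for degradation and is induced by the sterol-sensing LXR receptors, had 1 control read and 0 senescent reads, both under the floor of 3 reads (0.103 and 0.121 CPM), too few for a fold or for any difference to be detectable at such depth. Of the LXR genes, Nr1h2 had 2708 and 2628 reads (0.19, interval 0.11 to 0.26), and Nr1h3 had 1126 and 427 (-1.17, interval -1.33 to -1.01).

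Levels were compared between genes as RPKM, reads divided by exon length in kilobases and by the TMM-scaled library size. In the control library the level per length ran from 2.87 RPKM for Lrp1 to 87.8 RPKM for Ebp, a range of 30.6 times, and in the senescent library from 1.85 RPKM for Lrp1 to 59.4 RPKM for Ebp, 32.2 times. Ebp and Srebf2 (60.8 and 52.5 RPKM) were first and second in both libraries. Cyp51 came next in the control at 45.7 RPKM, followed by Fdps at 40.1 and Sqle at 38.7 RPKM, whose Poisson intervals overlapped, and Hmgcs1 at 35.6 and Msmo1 at 28.7 RPKM. In the senescent library Msmo1 came next at 31.5 RPKM, ahead of Hmgcs1 at 29.1 and Cyp51 at 28.5 RPKM, whose intervals overlapped with each other. The level of Msmo1 was thus 0.628 times that of Cyp51 in control and 1.11 times in senescent cells, but with the longest transcript as length it was 1.16 and 2.04 times, so their order in the control depends on the length used. Dhcr7, the last enzyme of the pathway, moved from 9.29 to 4.02 RPKM by exon length, and from 19.2 to 8.31 RPKM by the longest transcript. Of the 25 pairs of neighbours in the order of levels, 11 had overlapping intervals in control and 13 in senescent cells, so those neighbours cannot be ordered at this depth.

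**Figure D3:**
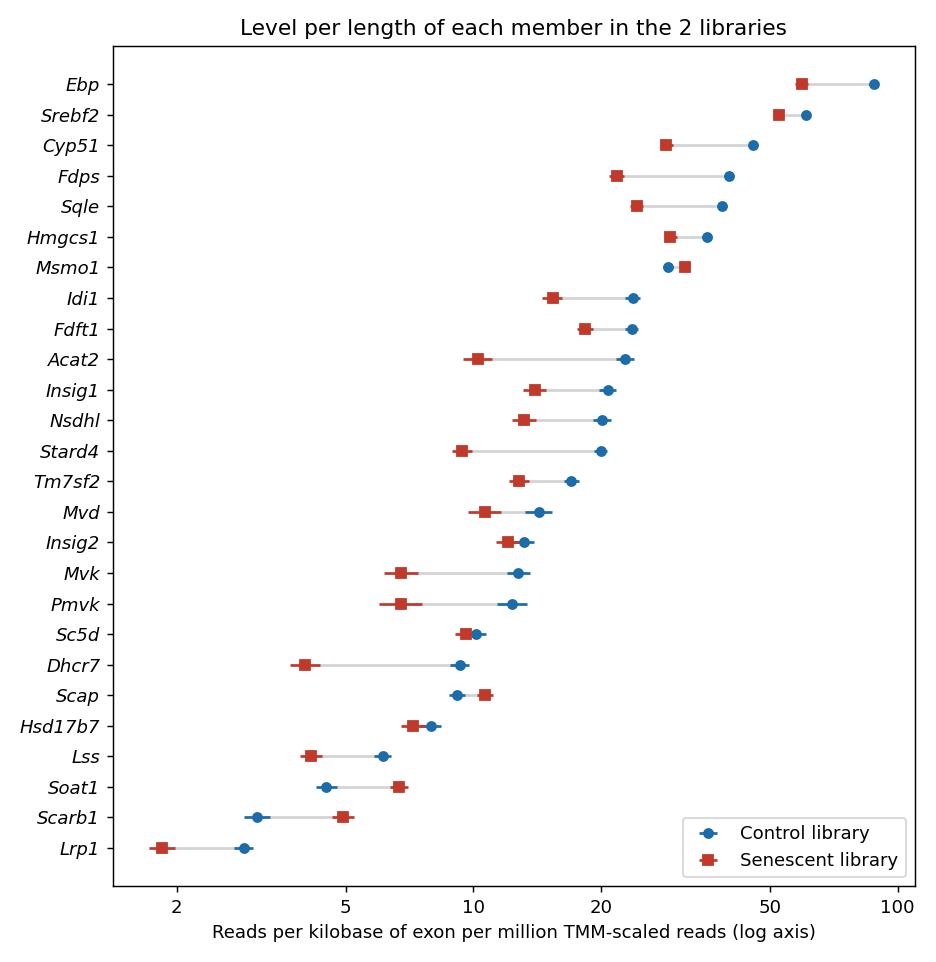
Level per length of 26 genes in RPKM on a log axis, with circles for the control and squares for the senescent library and 95% Poisson intervals as bars. Genes are ordered by the control level from Lrp1 at 2.87 to Ebp at 87.8, and the square lies to the right of the circle for Msmo1, Scap, Soat1 and Scarb1.

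Some of these counts share sequence with other genes. Exons of 8 genes overlap another annotated gene, and 4 match another transcript at 90% identity or more over at least 400 bases, 9 genes in all. Beside Acat2 and Fdft1, Idi1 matches processed pseudogenes, of which the 1 in the count table (Gm13502) had 23 and 13 reads. Tm7sf2 shares 532 exon bases with Vps51 on the same strand, and Cyp51 shares 166 with Akap9 on the opposite strand. Among the 17 genes with reads and no such overlap or match, 13 intervals lay below 0 (76.5%) and 3 above, and the median ratio was again -0.56.

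A second list of 47 genes holds other enzymes, proteases and ligases of the SREBP system, receptors, lysosomal and intracellular sterol carriers, exporters, LXR genes, the branches from farnesyl diphosphate and bile acid enzymes, and 41 of them had at least 10 reads. Of these, 15 had an interval below 0 (36.6%, background 34.6%) and 16 above 0 (39.0%, background 34.0%), 10 held 0, and the median ratio was 0.06. These shares were near the background. At the threshold of 1.5, 1 was lower (background 5.6%) and none was higher (background 2.71%). The lower gene was Acss2, which makes cytosolic acetyl-CoA from acetate, with 317 control and 94 senescent reads and a ratio of -1.51 (-1.87 to -1.19), and with a prior count of 5 it was -1.48. The highest ratios among genes of the list with at least 100 reads were those of Npc1, which exports cholesterol from the lysosome, with 1572 and 2940 reads (1.13, interval 1.04 to 1.22), and of 2 bile acid enzymes. Hsd3b7 had 3268 and 4929 reads (0.82, interval 0.76 to 0.89), and Cyp27a1 had 319 and 477 (0.81, interval 0.60 to 1.02).

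**Figure D4:**
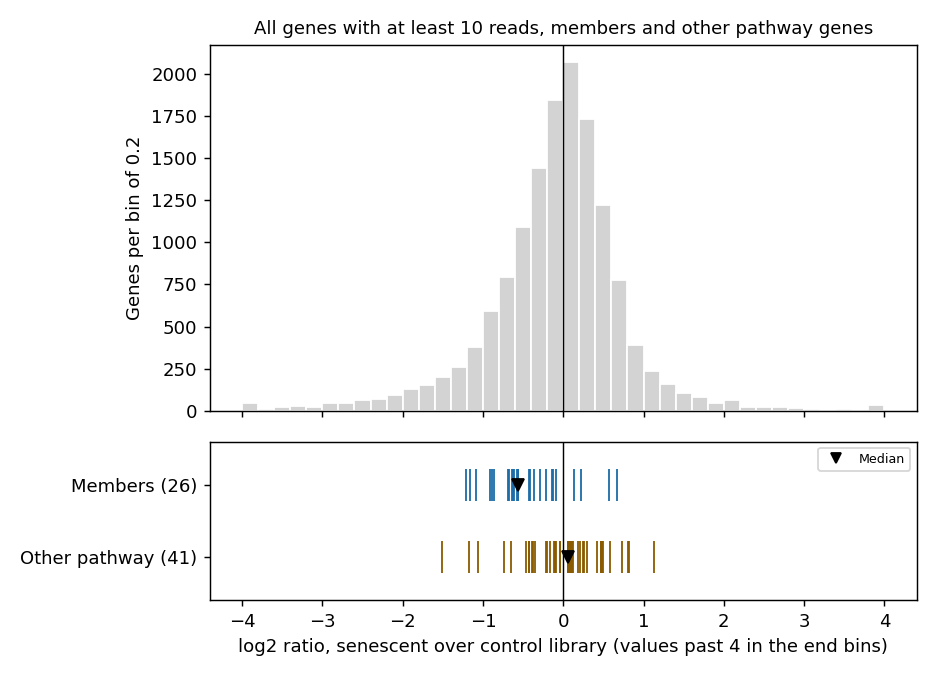
Top, number of genes per bin of log2 ratio for the 14383 genes with at least 10 reads. Bottom, 1 tick per gene for the 26 genes of the cholesterol list and the 41 other pathway genes, with triangles at their medians of -0.56 and 0.06, so that the first set lies mostly in the left part of the distribution without reaching its tail.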

How the data were processed

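RNAseq of control and peroxide-treated AML12 cells was analysed from the table of read counts per Ensembl gene that the authors deposited, un-normalized, with 1 library per condition (poly(A) RNA, random-primed cDNA). The submitters' processing notes name CASAVA, STAR, DESeq2, edgeR and the build mm10. The counting tool, annotation and strand setting are not given in the sources used here. Columns were matched to samples by the initials of the titles Young and Old. Symbols (34490 of 35275 genes), positions and exon lengths came from GENCODE M21 on GRCm38, and promoter windows from RefSeq on GRCm38.p6.

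Counts were scaled by TMM (edgeR 4.0.16, R 4.3.3; control factor 1.04, senescent factor 0.964), with a prior count of 1 in proportion to library size. A gene was called lower or higher with at least 10 reads, a log2 ratio past 1.5 and a 95% Clopper-Pearson interval without 0. With 1 library per group no count model was fitted and no p-value is given. Statistics used Python 3.11.15 with scipy 1.17.1 and statsmodels 0.14.6, and sequence matches blastn 2.17.0. The scripts were tested on simulated data. All 27 genes are named. Of the second list, genes past the threshold, or else the 4 largest ratios in a direction with at least 100 reads, and genes acting directly on a listed gene are named, except 1 that is not reported here. Soat2, from the same list, was named after its values were seen. Both lists were chosen with earlier results of these data known. Alternatives were total-count, DESeq2 (1.42.0) and upper-quartile scaling, read minimums of 1 and 100, prior counts of 0.125 and 5, thresholds of 1 and 2, removal of a GC trend, assumed variation of 0.1 and 0.4, and the longest transcript as length.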

Additional observations from a re-analysis of the deposited data

How the results depend on the processing

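Under total-count, DESeq2 and upper-quartile scaling, removal of the GC trend and the lower and higher prior counts, no listed gene with an interval without 0 changed direction. Total-count scaling moved the median of all genes by -0.11, which left 41.7% of all genes below 0 and 27.03% above (34.6% and 34.0% with TMM), and 22 of the 26 genes below 0 and 3 above. The interval of Msmo1 then held 0 and that of Sc5d lay below it, as with upper-quartile scaling for Sc5d, and removal of the GC trend gave 20 below 0, without Hsd17b7. The median of the 26 genes minus that of all genes was -0.55 with either scaling. The threshold of 1 gave 3 lower genes in place of 0. An assumed coefficient of variation of 0.1 left 2 genes above 0, and one of 0.4 left 0 below and 0 above. Leaving out genes that share sequence, chosen after seeing the data, gave 13 below 0 because fewer genes were counted. With the longest transcript as length, the median level was 22.9 in place of 18.5 RPKM in the control and 15.7 in place of 11.3 RPKM in the senescent library. No paired analysis was possible because each group has 1 library. At this depth the interval of a listed gene reached at most 0.21 to either side on the log2 scale, and Mylip could not be compared.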

Other observations

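The branches that leave the pathway at farnesyl diphosphate, all 7 genes of which were taken from the second list after their values were seen, lay on both sides of 0, as did all genes tested. Ggps1, which makes geranylgeranyl diphosphate, had 650 reads in control and 781 in senescent cells (log2 ratio 0.49, interval 0.34 to 0.65). The subunits of the dolichol-making enzyme lay apart from each other. Nus1 had 4373 and 5013 reads (0.43, interval 0.37 to 0.49), and Dhdds had 917 and 599 (-0.38, interval -0.54 to -0.23). The farnesyltransferase subunits were lower, at -0.35 (-0.58 to -0.12) for Fntb and -0.11 (-0.21 to -0.005) for Fnta, and the intervals of Pdss1 and Pdss2, which build the side chain of ubiquinone, held 0.

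Across the 26 genes, the log2 ratio had a Pearson correlation of 0.40 with log2 exon length and of -0.35 with the log2 control level per length (Spearman 0.39 and -0.25). The points share both libraries and the control count enters both measures of the second relation. Across 11251 genes with at least 100 reads the Pearson correlations were 0.10 and 0.02.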
